A study of Mus musculus with 6 samples.

Results

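The 33 genes of glycolysis and of the response to low oxygen were followed through 6 RNA-seq libraries of sorted mouse myeloid cells. They were listed by name, with earlier results of these data known. A line of the deposited count table belonged to the set when its symbol was 1 of the 33. All 33 were found among 49016 gene symbols, and all 33 had a mean of at least 1 CPM (counts brought to 1 library size with the TMM factors of edgeR). The cells were monocytes, intravascular macrophages (IVM) that lie inside vessels, and microglia, the macrophages resident in brain. Each kind was taken from mice labelled BRAFV600E mutant (VE) and from mice labelled WT, which gave VE monocytes, WT monocytes, VE IVM, WT IVM, VE microglia and WT microglia with 1 library each. The altered BRAF kinase signals without its usual trigger and drives the MEK and ERK cascade. The promoter or cell type that drives the mutant allele, the strain, the age, the number of mice or cells behind a library and the sorting gates are not given in the labels, so neither the reach of the mutation in these animals nor pooling can be described. VE was compared with WT within each cell type, and the cell types were compared across both genotypes.

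Glycolysis splits glucose into pyruvate, and macrophages and neutrophils draw on it heavily when they are activated. When pyruvate is turned into lactate, the cell regains the cofactor that the pathway needs, and monocarboxylate carriers let the lactate out. Oxygen acts on the pathway through HIF-1: prolyl hydroxylases mark its alpha subunit for destruction while oxygen is present, and when oxygen falls the protein persists and switches on glucose carriers, most glycolytic enzymes and other targets. That control acts on the HIF-1 alpha protein, so the level of its transcript does not measure the activity of the factor.

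Total counts per library were at most 65519506, in VE IVM, and at least 25787476, in WT monocytes, and the number of genes with a count was highest in VE IVM at 23214 and lowest in WT IVM at 15121. Microglia markers summed to 69036 CPM in VE and 33953 CPM in WT microglia, above the 9808 and 2728 CPM of VE and WT IVM, and classical monocyte markers were highest in VE and WT monocytes at 11599 and 7109 CPM. No marker list for IVM themselves was used. Their libraries carried patrolling monocyte markers at 2756 CPM in VE and 2412 CPM in WT, above the 1317 and 1107 CPM of VE and WT monocytes. Other cells were read as well: neutrophil markers summed to 57144 CPM in VE and 1976 CPM in WT monocytes, erythroid markers to 10484 and 217 CPM there, and T and NK cell markers to 2.57 CPM in VE IVM and 4631 CPM in WT IVM. Of the genes at 10 CPM or more in each of the other 5 libraries, 209 of 5510 (3.79%) were under 1 CPM in WT IVM, against 0 to 6 genes for any other library. The RNA gene Gm23935 took 5.02% of TPM in VE IVM and 46.6% in WT IVM, 1.13% in VE and 38.1% in WT microglia, and 4.56% in VE and 8.1% in WT monocytes, and its part in the ratios was not tested. With 1 library per group there is no replicate check of any VE against WT difference and no p-value is given for it. Intervals of folds are exact 95% binomial intervals of the counts. PCR copies were not collapsed by molecular identifiers, so reads are not independent molecules and all intervals and floors cover counting error only. In sorted bulk samples, fewer cells of a type and less RNA per cell cannot be told apart.

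HIF-1 binds DNA at the core ACGTG, and most members are textbook targets, so the letters before their start sites were read from RefSeq (GRCm38.p6, the build of mm10). Windows ran from 250 bases before to 50 bases after a start site, and 31 of the 33 members matched, with 44 windows; Slc2a3 and Ndrg1 are named only. ACGTG, on either strand, was found in 25 of the 44 windows (56.8%), against 19.6% of all 32851 windows of the same length. By gene, 22 of the 31 members (71%) had it in at least 1 window. A gene with several windows has more chances of a match. No share by gene was counted over all genes, so the 71% cannot be set against the 19.6% of windows. The core also occurs as GCGTG, and ACGTG or GCGTG was found in 81.8% of the members' windows, against 43.8% of all windows. A palindromic E-box, CACGTG, contains the core on both strands, so factors that bind E-boxes share these letters, and a match is a description of the sequence. The 250 bases before the start site are shown for 4 genes that hold ACGTG. They are a hypoxia target with large but opposite differences, the enzyme and the carrier at either end of the pathway, and a target almost missing from 1 library. For Ldha the window with more matches is shown, and its other window had 0 ACGTG. Tpi1, Ldhb and Pfkp, to which the results below also turn, had 0 ACGTG in their windows. With GCGTG counted as well, they had 0, 1 and 4 matches. Capitals mark each ACGTG and its reverse complement CACGT. Ankrd37 lies at chr8:45999851-46000100 on the minus strand and holds 2 separate cores, 241 and 6 bases before the start. Ldha lies at chr7:46845554-46845803 on the plus strand and holds 3 runs of capitals, of which those 145 and 48 bases before the start are E-boxes. Slc2a1, at chr4:119108495-119108744 on the plus strand, holds 1 core 36 bases before the start. Bnip3, at chr7:138909507-138909756 on the minus strand, holds 1 E-box 108 bases before the start.
Ankrd37: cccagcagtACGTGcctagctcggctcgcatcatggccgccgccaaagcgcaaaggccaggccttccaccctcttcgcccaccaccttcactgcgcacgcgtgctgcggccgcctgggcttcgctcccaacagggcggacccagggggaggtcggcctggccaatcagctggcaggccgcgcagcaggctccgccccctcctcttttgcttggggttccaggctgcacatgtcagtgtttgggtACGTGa
Ldha: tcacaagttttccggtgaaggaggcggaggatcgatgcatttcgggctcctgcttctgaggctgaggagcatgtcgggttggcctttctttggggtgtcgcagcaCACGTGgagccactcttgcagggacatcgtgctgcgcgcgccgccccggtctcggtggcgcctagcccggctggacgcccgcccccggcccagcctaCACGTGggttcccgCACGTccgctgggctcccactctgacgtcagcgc
Slc2a1: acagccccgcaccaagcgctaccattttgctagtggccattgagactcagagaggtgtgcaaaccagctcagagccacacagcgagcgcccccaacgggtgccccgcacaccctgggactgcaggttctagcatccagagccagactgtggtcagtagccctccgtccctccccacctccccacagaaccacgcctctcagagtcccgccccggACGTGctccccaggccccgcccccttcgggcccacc
Bnip3: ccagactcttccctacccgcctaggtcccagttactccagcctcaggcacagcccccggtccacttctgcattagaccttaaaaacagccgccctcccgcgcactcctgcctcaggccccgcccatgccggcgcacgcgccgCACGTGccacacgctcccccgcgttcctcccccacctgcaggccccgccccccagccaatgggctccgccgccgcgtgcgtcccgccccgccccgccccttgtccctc

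The plot of levels shows how far apart the members lay in each library. CPM is not corrected for gene length, so it is compared here only for the same gene across libraries. Gapdh, Eno1, Pkm, Aldoa and Ldha stood at 189 CPM or more in all 6 libraries. Eno2, Egln3 and Pfkm stayed at or under 11 CPM in all of them. Pfkm had 0 counts in WT IVM, the only member with none in a library.

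**Figure D1:**
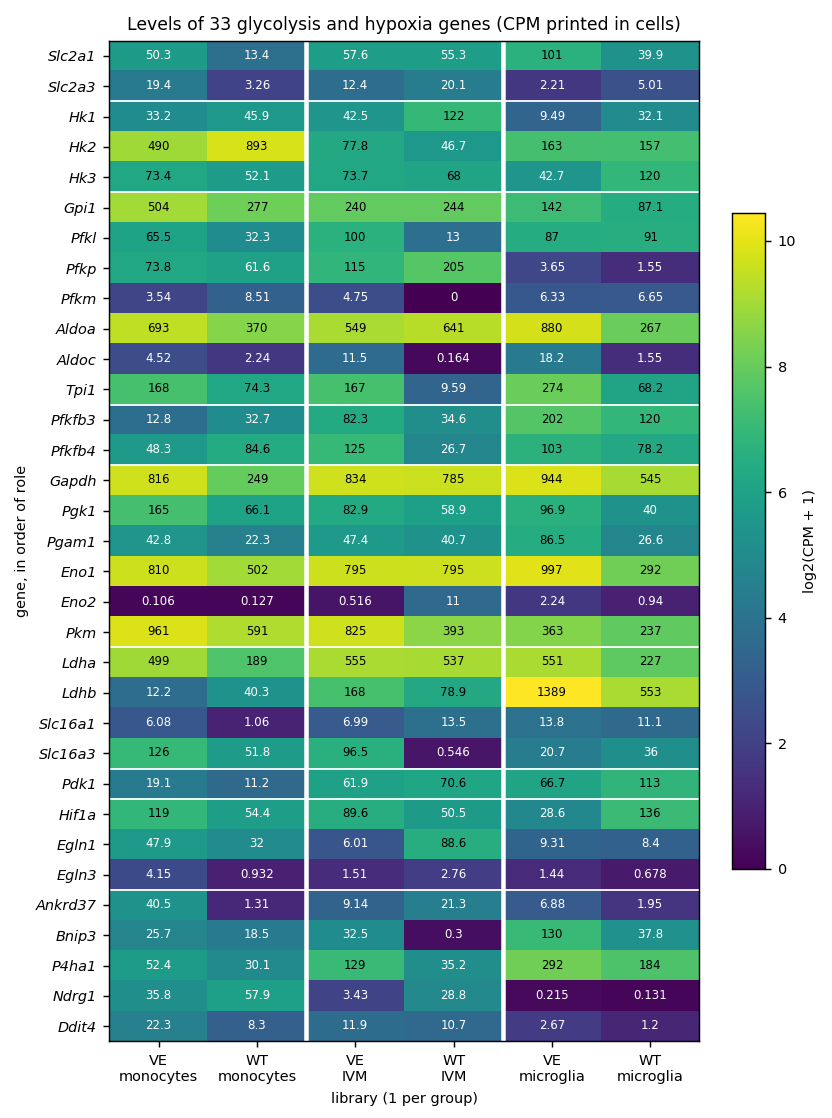
Levels of the 33 genes (rows, in order of role) in the 6 libraries (columns, 1 per group), with the CPM printed in each cell and the colour on a log2(CPM + 1) scale. Ldhb is brightest in VE microglia (1389 CPM) and WT microglia (553 CPM), Hk2 in VE monocytes (490 CPM) and WT monocytes (893 CPM), and Bnip3, Slc16a3, Aldoc and Pfkm are dark in WT IVM.

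VE monocytes read more of Slc2a1 and Slc2a3, of several glycolytic enzymes and of the hypoxia target Ankrd37 than WT monocytes, and less of Ldhb and Pfkfb3. The median log2 ratio of VE to WT over the 33 members was 0.86, against 0.04 over 13447 genes, and 25 members were above 0. A gene passed the size rule when VE and WT were at least 2-fold apart and the higher library reached 10 CPM. By this rule 11 of the 28 members at that level were higher in VE monocytes, where 16.7% of all 8377 genes were, and 2 were lower, where 6.33% of all genes were. The ratios of this pair moved with the scaling. With scaling by library size alone the median of all genes moved to -0.52 and that of the members to 0.27, with 4 members higher (8.45% of all genes) and 6 lower (26.1%). On TPM the medians were -0.65 and 0.02, with 1 member higher (8.11% of all genes) and 4 lower (33.2%). Under all settings tried, the members' median lay 0.67 to 0.90 above that of all genes.

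Both glucose carriers among the members were higher in VE monocytes. Slc2a1 encodes GLUT1, the carrier of most cells (chromosome 4, 119108711 to 119137983, plus strand, mm10, GENCODE M21), and had 50.3 CPM in VE and 13.4 CPM in WT monocytes, 3.76-fold higher (3.33 to 4.25). Slc2a3, the high-affinity carrier GLUT3, had 19.4 CPM in VE and 3.26 CPM in WT monocytes, 5.94-fold higher (4.69 to 7.61). Both carriers kept their direction under every scaling tried, Slc2a1 at a log2 ratio of 0.98 and Slc2a3 at 1.2 on TPM.

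No hexokinase, the enzyme that traps glucose in the cell as its phosphate, passed the size rule in monocytes. Hk2, the inducible isoform, was at 490 CPM in VE and 893 CPM in WT monocytes, a log2 ratio of -0.87. Between hexokinase and pyruvate kinase 4 enzymes passed the size rule as higher in VE monocytes. Gapdh, which oxidises the split sugar, had 816 CPM in VE and 249 CPM in WT monocytes (3.28-fold, 3.19 to 3.37). Pgk1, which makes the first ATP of the pathway, had 165 CPM in VE and 66.1 CPM in WT monocytes (2.5-fold, 2.36 to 2.64). Tpi1, which interconverts the triose phosphates, was 2.26-fold higher (2.14 to 2.38) and Pfkl, the liver-type phosphofructokinase, 2.03-fold (1.87 to 2.21), the nearest to the threshold. With library size scaling Gapdh alone of these 4 kept a log2 ratio over 1 (1.12), with Pgk1 at 0.73, Tpi1 at 0.58 and Pfkl at 0.43. On TPM none did, with Gapdh at 0.84. Pfkl was also under 1 with DESeq2 size factors (0.96). Gpi1, Aldoa, Pgam1, Eno1 and Pkm were also higher in the VE library but under 2-fold, with log2 ratios of 0.69 to 0.94.

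Beside the pathway stand the PFKFB enzymes, which set the level of fructose 2,6-bisphosphate, the strongest activator of phosphofructokinase. Pfkfb3 had 12.8 CPM in VE and 32.7 CPM in WT monocytes (2.56-fold lower, 2.28 to 2.87), and Pfkfb4 had 48.3 and 84.6 CPM, which did not reach 2-fold. At the lactate end, Ldha, the subunit that favours lactate, had 499 CPM in VE and 189 CPM in WT monocytes (2.64-fold higher, 2.55 to 2.73). Ldhb, the subunit that favours pyruvate (chromosome 6, 142490249 to 142507957, minus strand), had 12.2 CPM in VE and 40.3 CPM in WT monocytes, 3.30-fold lower (2.95 to 3.69). Slc16a3, the lactate exporter MCT4, was 2.44-fold higher (2.29 to 2.6) at 126 CPM in VE and 51.8 CPM in WT monocytes. Ldha and Slc16a3 were under 2-fold with library size scaling (log2 ratios of 0.81 and 0.70) and on TPM (0.53 and 0.41).

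Among the oxygen genes of monocytes, Hif1a itself was 2.19-fold higher (2.06 to 2.34), at 119 CPM in VE and 54.4 CPM in WT. Ankrd37 (chromosome 8, 45996902 to 46005707, minus strand) showed the widest gap, with 40.5 CPM in VE and 1.31 CPM in WT monocytes, a log2 ratio of 4.90, and its exons share bases with Lrp2bp and Ufsp2 on the other strand. Ddit4, the mTORC1 inhibitor REDD1, was 2.68-fold higher (2.29 to 3.15). Hif1a and Ddit4 were under 2-fold with library size scaling (0.54 and 0.83) and on TPM (0.26 and 0.53), while Ankrd37 stayed at 4.30 and 3.64. Bnip3, a mitochondrial receptor for mitophagy, P4ha1, a collagen prolyl hydroxylase, and the hydroxylase Egln1 were between 1.39-fold and 1.74-fold higher, and Ndrg1 was 1.62-fold lower. Neutrophil, erythroid and platelet markers moved with these genes in the VE library. Of 12 neutrophil markers, 12 reached 10 CPM in VE monocytes and 8 in WT monocytes. Platelet markers summed to 1737 and 23.3 CPM, of which Pf4, also a border macrophage marker, gave 1647 and 12.7 CPM. Border macrophage markers summed to 3232 and 1429 CPM and cell cycle markers to 255 and 73.9 CPM in VE and WT monocytes. The part of these cells' RNA, and of cell division, in the members' ratios was not tested.

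**Figure D2:**
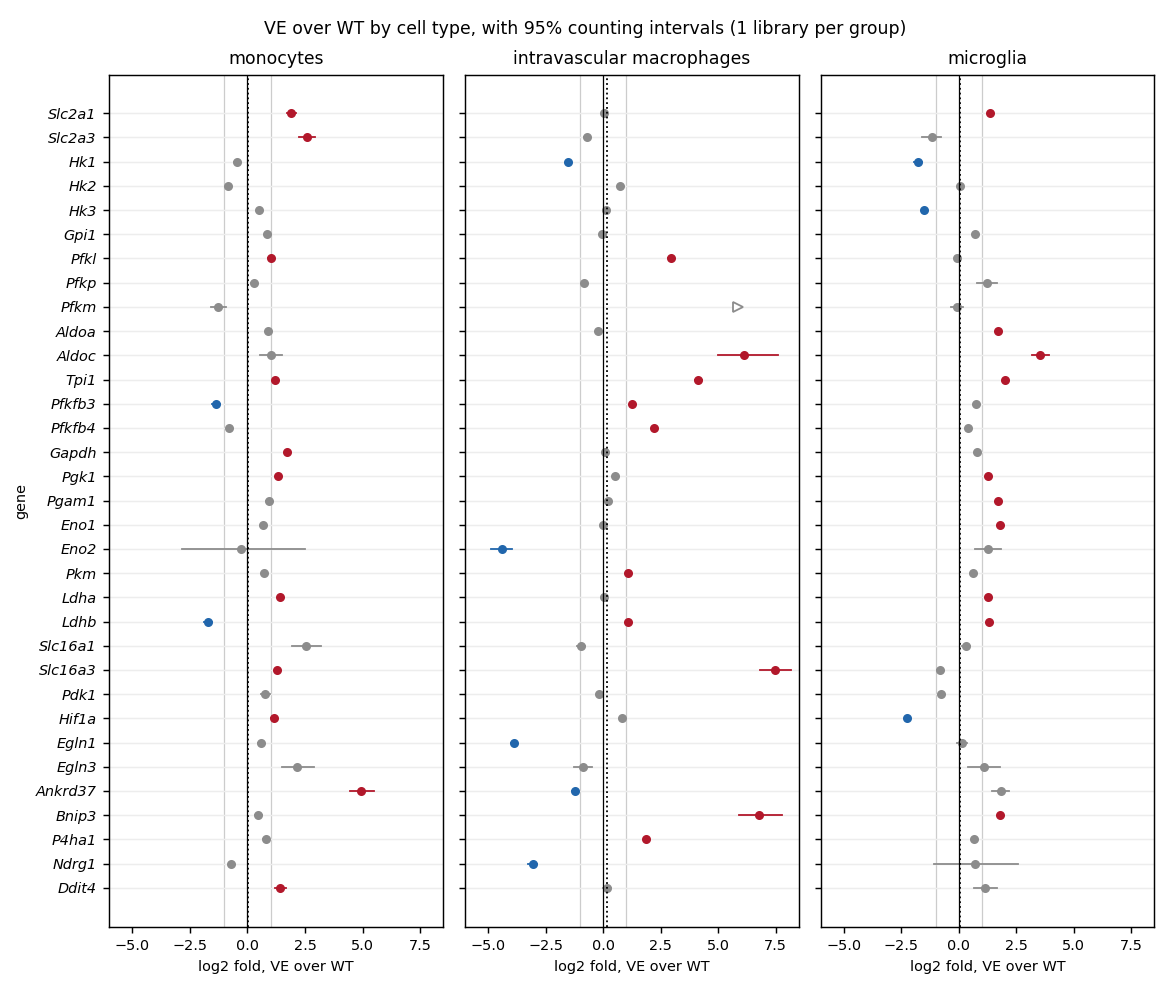
Log2 fold of VE over WT for each gene (rows) in monocytes, IVM and microglia (panels), with 95% counting intervals; red and blue mark genes past the size rule, grey the others, the open triangle a lower bound against 0 counts, and the dotted line the median log2 ratio of all genes. Tpi1 lies to the right in every panel (2.26-, 17.4- and 4.02-fold), and Hif1a and Ldhb lie on different sides of 0 in monocytes and in at least 1 other panel.

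Between VE and WT IVM the members lay on both sides of equality. Their median log2 ratio was 0.12, against 0.18 for all genes. Of the 31 members at 10 CPM, 10 were at least 2-fold higher in VE IVM, where 26.9% of all 9565 genes were, and 5 lower, where 28.8% of all genes were. The split depended on the unit: on TPM 21 were higher and 1 lower (54.2% and 11.4% of all genes), and after removing the trend with gene length 7 were higher and 8 lower (19.6% and 42%), with the members' median at -0.62 and that of all genes at -0.32.

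The widest gaps of this pair came from transcripts almost missing in WT IVM. Slc16a3 (chromosome 11, 120948480 to 120960868, plus strand) had 96.5 CPM in VE IVM, from 8234 counts, and 0.546 CPM in WT IVM, from 20 counts, 177-fold higher (114 to 289). Bnip3 had 32.5 CPM in VE and 0.300 CPM in WT IVM (108-fold, 60.4 to 217). These 2 genes were at 10 CPM or more in each of the other 5 libraries, and they are 2 of the 209 genes under 1 CPM in WT IVM alone. Aldoc, the brain-type aldolase, had 11.5 CPM in VE and 0.164 CPM in WT IVM (70.3-fold, 32.2 to 192), on 6 WT counts. Pfkm, the muscle phosphofructokinase, was listed at 405 counts in VE and 0 in WT IVM, at least 57.9-fold higher against a floor of 3 counts per library, but its 4.75 CPM lay under the 10 CPM of the rule.

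Tpi1 (chromosome 6, 124810586 to 124814296, minus strand) had 167 CPM in VE IVM and 9.59 CPM in WT IVM, 17.4-fold higher (15.7 to 19.4), and the WT value was the lowest of the 6 libraries. Its exons share bases with Spsb2 on the other strand. Pfkl followed at 100 CPM in VE and 13 CPM in WT IVM (7.72-fold, 7.04 to 8.49). Both PFKFB enzymes were higher in VE IVM, Pfkfb4 by 4.68-fold (4.38 to 5) and Pfkfb3 by 2.38-fold (2.24 to 2.53). Pkm, the pyruvate kinase of most tissues, was 2.10-fold higher (2.06 to 2.14), Ldhb 2.13-fold (2.04 to 2.21) and P4ha1 3.67-fold (3.47 to 3.89). Removing the trend with gene length brought Pfkfb3, Pkm and Ldhb under 2-fold, at log2 ratios of 0.56, 0.31 and 0.81.

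Other steps of the same pathway differed little in IVM. Eno1 stood at 795 CPM in both VE and WT, and Gapdh at 834 CPM in VE and 785 CPM in WT. Ldha had 555 CPM in VE IVM and 537 CPM in WT IVM, Gpi1 240 and 244 CPM, and Slc2a1 57.6 and 55.3 CPM. All 5 of these lay within 1.06-fold of equality on this scale.

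The genes lower in VE IVM included members of the oxygen system. Egln1, the main prolyl hydroxylase that acts on HIF-1 alpha, had 6.01 CPM in VE and 88.6 CPM in WT IVM, 14.7-fold lower (13.4 to 16.2). Ndrg1, a hypoxia-induced stress gene, had 3.43 CPM in VE and 28.8 CPM in WT IVM (8.38-fold lower, 7.35 to 9.57). Ankrd37 was 2.33-fold lower (2.11 to 2.58) at 9.14 CPM in VE and 21.3 CPM in WT IVM, a gap that closed on TPM, at a log2 ratio of -0.01. Eno2, the neuronal enolase, had 0.516 CPM in VE and 11.0 CPM in WT IVM (21.2-fold lower, 15.5 to 29.7), while all 7 neuron markers were at 0 counts in WT IVM. Hk1, the housekeeping hexokinase, had 42.5 CPM in VE and 122 CPM in WT IVM (2.87-fold lower, 2.75 to 3), which was also under 2-fold on TPM, at -0.30. T and NK cell markers moved with this group: 0 of 14 reached 10 CPM in VE IVM and 14 of 14 in WT IVM, among them Cd3d at 0.105 CPM in VE and 424 CPM in WT IVM. Other lists were higher in VE IVM, beside the higher members: microglia markers summed to 9808 CPM in VE and 2728 CPM in WT IVM, border macrophage markers to 881 and 42.9 CPM, neutrophil markers to 698 and 131 CPM, and the 6 astrocyte markers to 75.7 and 27.6 CPM. The part of these cells' RNA, and of the genes missing from WT IVM, in the members' ratios was not tested.

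VE microglia read more of most glycolytic enzymes than WT microglia, and less of Hk1, Hk3 and Hif1a. The median log2 ratio of the members was 0.75, against 0.07 for all genes, and 25 of the 33 were above 0. Of the 24 members at 10 CPM, 10 were at least 2-fold higher in VE microglia (27.9% of all 8798 genes) and 3 lower (25.4%). Scaling by library size moved the median of all genes to -0.45 and that of the members to 0.13, with 6 members higher (6.47% of all genes) and 5 lower (41.4%). Under all settings tried the members' median lay 0.50 to 0.77 above that of all genes.

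From aldolase to enolase, 6 enzymes were at least 2-fold higher in VE microglia. Eno1, the enolase of most tissues, had 997 CPM in VE and 292 CPM in WT microglia (3.41-fold, 3.35 to 3.48), and Pgam1, the phosphoglycerate mutase, 86.5 and 26.6 CPM (3.25-fold, 3.04 to 3.48). Aldoa, the aldolase of most tissues, had 880 CPM in VE and 267 CPM in WT microglia (3.30-fold, 3.23 to 3.37), and Tpi1 had 274 and 68.2 CPM (4.02-fold, 3.86 to 4.19). Pgk1 was 2.42-fold higher (2.29 to 2.57), and Gapdh and Pkm were 1.73-fold and 1.53-fold higher, short of the rule. Aldoc had the widest gap, 18.2 CPM in VE and 1.55 CPM in WT microglia (11.7-fold, 9.15 to 15.2). Aldoc is also an astrocyte gene, and the 6 other astrocyte markers summed to 195 CPM in VE and 130 CPM in WT microglia, of which Slc1a3 gave 190 and 128 CPM. Gfap was at 0.369 and 0.153 CPM, Slc1a2 at 2.83 and 0.678 CPM and Gja1 at 0.461 and 0.0219 CPM. Neuron markers summed to 24.4 CPM in VE and 5.05 CPM in WT microglia, most of it Snap25 (17.7 and 2.93 CPM). The part of these cells' RNA in the members' ratios was not tested.

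Slc2a1 was 2.53-fold higher (2.39 to 2.68), at 101 CPM in VE and 39.9 CPM in WT microglia. Ldhb, at 1389 CPM in VE and 553 CPM in WT microglia, was 2.51-fold higher (2.47 to 2.55), and Ldha was 2.42-fold higher (2.37 to 2.48). Library size scaling brought Slc2a1, Ldhb, Ldha and Pgk1 under 2-fold, at log2 ratios of 0.65 to 0.72. Removing the trend with gene length brought Ldhb to 0.46, Pgk1 to 0.63 and Pgam1 to 0.90. Bnip3 had 130 CPM in VE and 37.8 CPM in WT microglia (3.44-fold, 3.26 to 3.64). Hif1a went the other way, with 28.6 CPM in VE and 136 CPM in WT microglia, 4.77-fold lower (4.46 to 5.12). Hk1 was 3.38-fold lower (2.99 to 3.83) and Hk3, a hexokinase of myeloid cells, 2.82-fold lower (2.66 to 2.99). Microglia markers themselves summed to a higher level in VE than in WT microglia, 69036 against 33953 CPM, and the part of this shift in the members' ratios was not tested.

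Set side by side, Tpi1 was the only member that passed the size rule as higher in VE cells of all 3 kinds (2.26-, 17.4- and 4.02-fold in monocytes, IVM and microglia). In monocytes its log2 ratio was under 1 with library size scaling (0.58) and on TPM (0.30). Aldoc was 2.01-, 70.3- and 11.7-fold higher, but its 4.52 CPM in VE monocytes lay under the minimum of 10 CPM. By the size rule Ldha, Pgk1, Slc2a1 and Tpi1 were higher in both monocytes and microglia, Pfkl, Slc16a3 and Tpi1 in both monocytes and IVM, and Aldoc, Bnip3, Ldhb and Tpi1 in both IVM and microglia. No member was lower in all 3. In all, 26 of the 33 passed the size rule in at least 1 cell type; the 7 that did not were Egln3, Gpi1, Hk2, Pdk1, Pfkm, Pfkp and Slc16a1. The 18 enzymes from hexokinase to lactate dehydrogenase summed to 5413 CPM in VE and 3477 CPM in WT monocytes. Their sum was 4689 and 4050 CPM in VE and WT IVM, and 6056 and 2754 CPM in VE and WT microglia. On TPM, with the members' glucose and lactate carriers added, the sum was 1082 in VE and 1170 in WT monocytes. That sum was 3949 and 1375 in VE and WT IVM, and 3793 and 1965 in VE and WT microglia. In monocytes the direction of the sum thus depended on the unit.

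Within a family, shares do not depend on how a library is scaled. They were taken from the deposited TPM, which divides counts by gene length, so that isoforms of unlike length can be compared. Among the hexokinases, Hk2 made up 77.5% of hexokinase TPM in VE and 88.5% in WT monocytes. In IVM Hk3 was the largest, at 52.6% in VE and 45.5% in WT, while Hk1 took 13.1% in VE and 35.2% in WT. In microglia the leading isoform differed between the genotypes: Hk2 held 68.2% in VE and 41.8% in WT microglia, and Hk3 29.0% in VE and 52.2% in WT microglia.

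Phosphofructokinase, the committed step, had unlike isoforms in microglia and in the other cells. Pfkl took 88.7% in VE and 89.6% in WT microglia, where Pfkp, the platelet isoform, was at 1.74% and 0.715%. In monocytes Pfkl stood at 62.2% in VE and 43.8% in WT and Pfkp at 32.8% and 39.1%. In IVM Pfkl stood at 62.3% in VE and 11.9% in WT, and Pfkp at 33.4% in VE and 88.1% in WT. Of the activators, Pfkfb4 led in monocytes (85.4% in VE, 80.1% in WT) and both were near equal in microglia, with Pfkfb3 at 55.8% in VE and 49.8% in WT.

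In lactate dehydrogenase the leading subunit was Ldhb in microglia and Ldha in the other cells. Ldhb made up 84.2% of it in VE and 83.7% in WT microglia, against 38.9% in VE and 23.6% in WT IVM and 4.91% in VE and 31.0% in WT monocytes. The lactate carriers among the members were Slc16a1 and Slc16a3 only, and the shares are of their sum. Slc16a3 held 94.5% in VE and 97.6% in WT monocytes, 55.5% in VE and 73.1% in WT microglia, and 92.0% in VE IVM. WT IVM alone had 3.25% Slc16a3, with Slc16a1, the carrier MCT1, at 96.8%. Slc16a7, of the same gene family, was not a member and was not counted. It had 51.4 CPM in VE and 37.3 CPM in WT microglia, and 16.7 and 24.3 CPM in VE and WT monocytes. In VE and WT IVM it had 29.9 and 0.355 CPM. The shares thus do not rank Slc16a3 against Slc16a7. Of Slc2a1 and Slc2a3, Slc2a1 was the larger in every library, from 84.3% in VE monocytes to 99.0% in VE microglia. Counting members only, Aldoa held at least 97.6% of aldolase and Eno1 at least 98.4% of enolase throughout. As shares of counts, without the division by length, Pfkp led Pfkl in VE monocytes (51.7%), WT monocytes (60.2%) and VE IVM (52.2%), and Hk2 led Hk3 in VE IVM (40.1%) and WT microglia (50.7%) while Hk1 led in WT IVM (51.5%); the isoform in front was otherwise the one named, apart from Pfkfb3 in front of Pfkfb4 in WT IVM and WT microglia (56.5% and 60.6%).

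**Figure D3:**
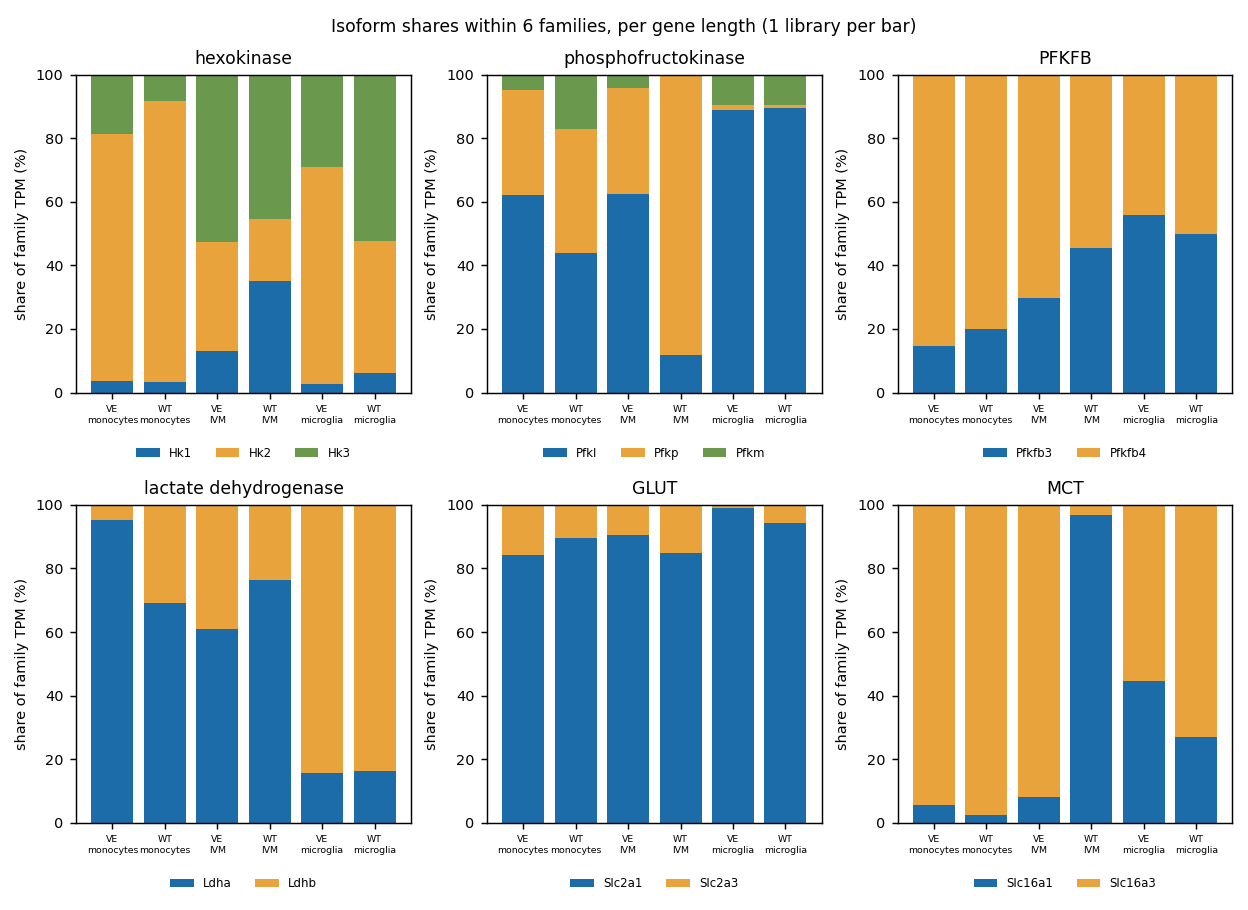
Share of each isoform in the TPM of its family, counting members only (y axis, percent), in 6 families. Each bar is 1 library, with VE left of WT for each cell type. WT IVM stand apart in phosphofructokinase (88.1% Pfkp) and in MCT (3.25% Slc16a3, on 20 counts), and both microglia libraries in lactate dehydrogenase (84.2% and 83.7% Ldhb).

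The same per-length scale shows how transcripts were spread over the steps. TPM was summed over the members of a step and divided by the sum of the 13 steps in that library. Lactate dehydrogenase took 50.3% of the pathway in VE and 46.6% in WT microglia, 22.7% in VE and 21.7% in WT IVM, and 12.3% in VE and 10.8% in WT monocytes. Hexokinase took 8.19% in VE and 22.1% in WT monocytes, where it ranked first, and 1.92% in VE and 6.94% in WT microglia. Gapdh held 15.3% in VE and 7.87% in WT monocytes. Phosphofructokinase never passed 3.03%, and glucose transport, here Slc2a1 and Slc2a3 only, never passed 1.89%. Tpi1 lay between 2.74% and 5% in 5 libraries and at 0.356% in WT IVM.

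**Figure D4:**
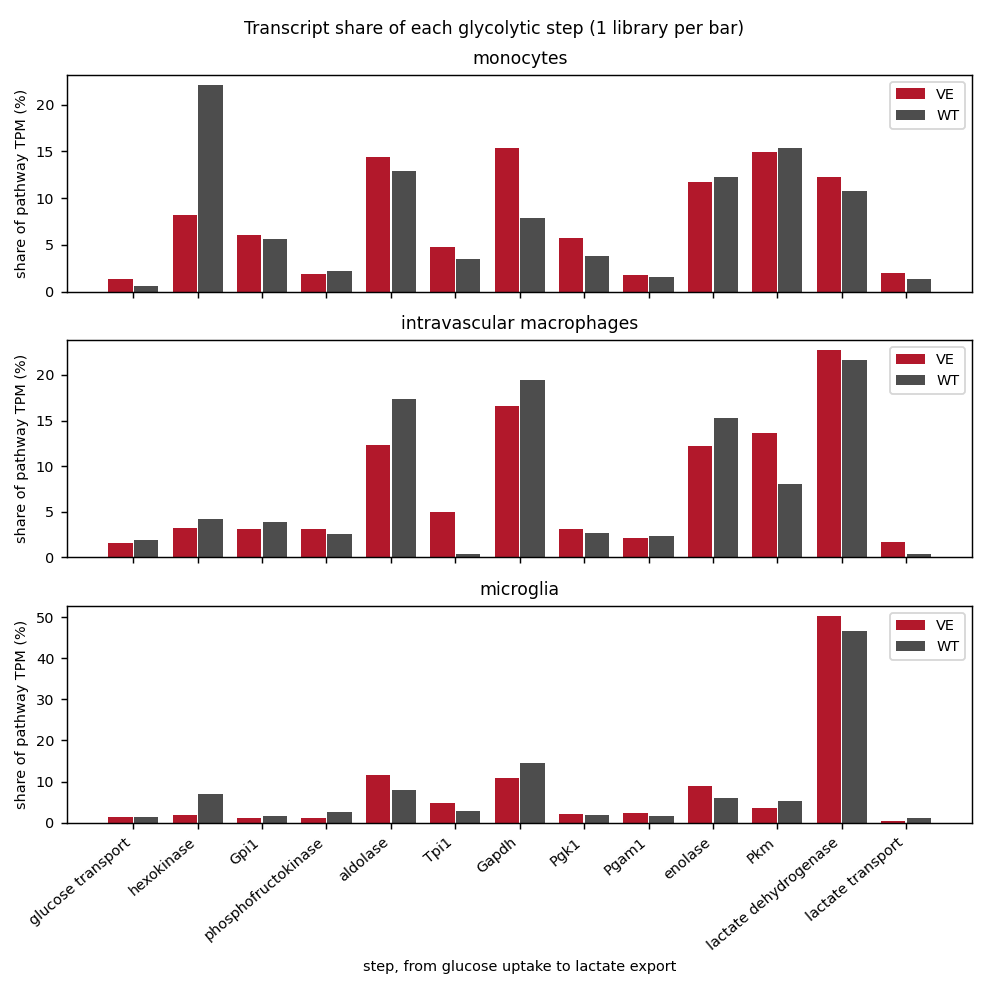
Share of each of the 13 steps in the summed TPM of the pathway, counting members only. Panels are cell types, each with its own y axis in percent, with VE (red, left) and WT (grey, right), 1 library per bar. Lactate dehydrogenase takes about as much in VE as in WT microglia (50.3% and 46.6%), hexokinase is the tallest bar of WT monocytes (22.1%), and Tpi1 is almost missing in WT IVM (0.356%).

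For the comparison of cell types, all 6 libraries entered 1 edgeR quasi-likelihood fit with a genotype term, and p-values were adjusted by the Benjamini-Hochberg method over 17023 genes. This leaves 2 residual degrees of freedom, and a difference between VE and WT that is unlike in the cell types counts as spread. The labels do not say that libraries came from separate animals, so p measures the spread between these libraries, which may be technical in part.

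Ldhb was higher and Pfkp and Ndrg1 were lower in microglia than in monocytes. These were the 3 members called of 33, 1 higher where 1.76% of all genes were called and 2 lower where 3.23% were. Ldhb had 1389 and 553 CPM in VE and WT microglia, against 12.2 and 40.3 CPM in VE and WT monocytes, a log2 fold change of 5.05 (SE 1.09, edgeR adjusted p = 0.0149). Its adjusted p ranged from 5.78e-09 to 0.458 over 11 alternatives and passed in 9. It was not called with library size scaling (5.44) or without the VE monocytes (3.68). Pfkp (chromosome 13, 6579768 to 6648777, minus strand) had 3.65 and 1.55 CPM in VE and WT microglia, against 73.8 and 61.6 CPM in VE and WT monocytes, a log2 fold change of -4.75 (SE 0.88, edgeR adjusted p = 0.00546, at most 0.0446 over the alternatives). Ndrg1 had 0.215 and 0.131 CPM in VE and WT microglia, from 7 and 6 counts, against 35.8 and 57.9 CPM in VE and WT monocytes, a log2 fold change of -7.91 (SE 1.46, edgeR adjusted p = 0.00546, 1.72e-17 to 0.0893 over the alternatives). It was not called without either monocyte library, at -7.71 without VE and -8.22 without WT.

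IVM held far more Pfkp than microglia, with 115 CPM in VE and 205 CPM in WT IVM against 3.65 CPM in VE and 1.55 CPM in WT microglia. The log2 fold change was 6.01 (SE 0.94, edgeR adjusted p = 0.00467, at most 0.0292 over 11 alternatives, all of which called it). Pfkp was the 1 member called in this comparison, where 1.25% of all genes were called higher and 0.0411% lower. Ndrg1 was next, at 3.43 and 28.8 CPM in VE and WT IVM and a log2 fold change of 6.01 (SE 1.40, edgeR adjusted p = 0.0554). Ldhb stood lower in both VE and WT IVM than in both microglia libraries, with a log2 fold change of -2.99 (SE 0.96) that missed the threshold (edgeR adjusted p = 0.26).

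No member was called between IVM and monocytes by edgeR, where 0.27% of all genes were called higher and 0.241% lower. There 1 member in each direction had an unadjusted p under 0.05. DESeq2 called 1 member higher (2.64% of all genes) and 1 lower (3.16%), and limma-voom 0 higher (0.264%) and 1 lower (1.15%). Hk2 came nearest, at 77.8 and 46.7 CPM in VE and WT IVM against 490 and 893 CPM in VE and WT monocytes, a log2 fold change of -3.51 (SE 0.87, edgeR adjusted p = 0.115, 0.000673 to 1 over 11 alternatives, of which 7 called it). Pdk1, a kinase that inhibits pyruvate dehydrogenase, had 61.9 and 70.6 CPM in VE and WT IVM. In VE and WT monocytes Pdk1 had 19.1 and 11.2 CPM (log2 fold change 2.09, SE 0.77, edgeR adjusted p = 0.389). Leaving out either IVM library raised the calls among members and among all genes. Without VE IVM, 4 members were called higher (9.46% of all genes) and 6 lower (17.7%) against monocytes, 8 higher (11.4%) and 9 lower (19.2%) against microglia, and 7 higher (12.3%) and 6 lower (15.1%) in microglia over monocytes. Without WT IVM, 3 were called lower against monocytes (6.27%), 2 higher against microglia (3.39%), and 6 higher (12.3%) and 6 lower (14.3%) in microglia over monocytes.

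Ranks over the 4 libraries of a comparison give a second view. In IVM over monocytes, 8 members were higher in both libraries than in both of the other cell type (20.3% of all genes) and 3 lower (22.9%). Microglia over monocytes gave 8 higher (32.9%) and 9 lower (29.2%), and IVM over microglia 9 higher (13.7%) and 6 lower (22.2%). Pfkfb3, at 202 and 120 CPM in VE and WT microglia against 12.8 and 32.7 CPM in VE and WT monocytes, was among those higher in microglia, as were Pdk1 and P4ha1, but their edgeR adjusted p of 0.074 to 0.091 missed the threshold. Hk2, Gpi1 and Ndrg1 were lower in both IVM and microglia than in monocytes. Per library, Ldha, Gapdh, Aldoa and Eno1 overlapped between microglia and monocytes.

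Neighbouring pathways were read beside the members. In monocytes the mitochondrial pyruvate carriers Mpc1 (184 CPM in VE, 44.9 CPM in WT, 4.09-fold higher, 3.83 to 4.36) and Mpc2 (2.72-fold, 2.61 to 2.82) were the 2 of 11 pyruvate entry genes at 10 CPM that were higher, with Pdp2 lower. None of the 7 pentose phosphate genes passed the size rule there. Of 18 other hypoxia targets at 10 CPM, 7 were higher in VE monocytes (16.7% of all genes) and 0 lower (6.33%), with a median log2 ratio of 0.25 beside 0.04 for all genes. They included Hilpda, a lipid droplet protein (39.0 CPM in VE, 2.12 CPM in WT, 18.4-fold, 13.9 to 25), and Mif, a cytokine (8.51-fold, 8.18 to 8.85). Of 15 mTORC1, MYC and AMPK regulators at 10 CPM, 2 were higher and 1 lower, with a median of 0.05. Among them Myc, an activator of glycolytic genes, had 17.9 CPM in VE and 2.5 CPM in WT monocytes (7.18-fold, 5.49 to 9.53).

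In IVM, where 26.9% of all genes were higher and 28.8% lower in VE, 2 of 20 other hypoxia targets were higher and 8 lower, with a median of -0.21 beside 0.18 for all genes. Stc2 had 0 counts in VE and 20.5 CPM in WT IVM, at least 583-fold lower, Plod2, a lysyl hydroxylase of collagen, was 64-fold lower (40.6 to 107), and Plod1 5.65-fold higher (5.28 to 6.07). The HIF regulators also split, with 4 of 10 higher and 3 lower and a median of -0.16: Vhl, which binds hydroxylated HIF-1 alpha, had 54.5 CPM in VE and 1.34 CPM in WT IVM (40.7-fold higher, 30.8 to 55.1), and Cited2, which competes with HIF for its coactivator, had 6.70 CPM in VE and 105 CPM in WT IVM (15.6-fold lower, 14.3 to 17.1). Pyruvate entry genes had 5 of 11 higher and 0 lower, with a median of 1.16 beside 0.18 for all genes. These IVM ratios share the genes missing from WT IVM noted above. In microglia 27.9% of all genes were higher and 25.4% lower in VE. Taldo1 (3.83-fold higher, 3.70 to 3.96) and G6pdx (2.28-fold, 2.17 to 2.40) were the 2 of 6 pentose phosphate genes higher in VE, and 5 of 11 HIF regulators were lower and 2 higher, with a median of -0.95 beside 0.07 for all genes. The lower ones included Siah1a (4.81-fold lower, 4.12 to 5.64). Of 15 mTORC1, MYC and AMPK regulators at 10 CPM, 3 were higher and 3 lower, with a median of -0.05. Myc was 3.01-fold higher (2.84 to 3.19) and Tsc2, which holds mTORC1 in check, 4.98-fold lower (4.48 to 5.56), at 11.8 CPM in VE and 58.9 CPM in WT microglia. The other lower ones were Mlxip (3.09-fold, 2.88 to 3.32) and Rptor (2.88-fold, 2.75 to 3.02).

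Between cell types, these lists held 2 calls of 96 genes tested for IVM over monocytes (1 higher and 1 lower, where 0.27% and 0.241% of all genes were called). There were 9 for microglia over monocytes (4 higher and 5 lower, beside 1.76% and 3.23%), and 2 for IVM over microglia (both higher, beside 1.25%). Slc2a5, the fructose carrier GLUT5 and a known microglia gene, was higher in microglia than in monocytes (log2 fold change 11.17, SE 1.28, edgeR adjusted p = 0.000358) and in IVM than in monocytes (7.41, SE 1.12, edgeR adjusted p = 0.00816). It had 177 and 32.3 CPM in VE and WT IVM, against 1460 and 804 CPM in VE and WT microglia. Slc2a5 is on the microglia marker list, which the IVM libraries also carried, and the part of microglia RNA in its IVM level was not tested. Pygl, the liver-type glycogen phosphorylase, was lower in microglia than in monocytes (-5.12, SE 0.82, edgeR adjusted p = 0.00232) and higher in IVM than in microglia (4.09, SE 0.78, edgeR adjusted p = 0.0173). The hypoxia target Bhlhe40, a transcriptional repressor, was also lower in microglia than in monocytes (-5.57, SE 1.10, edgeR adjusted p = 0.00839) and higher in IVM than in microglia (8.45, SE 1.29, edgeR adjusted p = 0.0041).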

How the data were processed

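Total RNA of 6 sorted samples was made into full-length cDNA with a low-input kit and then into Nextera XT libraries, per the labels' protocols. The authors deposited raw read counts per gene and, in a second table, TPM (counts divided by gene length and scaled to a common sum), per the file headers. The submitters' processing notes name bcl2fastq 2.20, Trimmomatic 0.37, STAR 2.5.2b, Subread 1.5.2 and the build mm10; the role of each, the annotation behind the counts and the strand setting were not given in the sources used here. Exons of 13 members (Slc2a1, Hk1, Hk3, Gpi1, Pfkp, Pfkm, Aldoa, Tpi1, Gapdh, Hif1a, Ankrd37, Bnip3 and Ndrg1) overlap genes on the other strand in GENCODE M21, and if strand was not used such reads cannot be told apart. Aldoa has 2 gene entries there. Processed pseudogenes took at most 3.08% of the counts of a member's parent (Eno1b against Eno1).

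Of 49315 lines, 176 without a name and 26 with a date in place of a symbol were left out, with 0.0677% to 0.245% of a library's counts, and 94 repeated symbols were summed. For 9056 genes with 20 counts in all 6 libraries, 99.9% of values kept a constant ratio of count to TPM within 1%. Since the share of Gm23935 in TPM was higher in WT than in VE libraries, counts scaled with TMM were used for levels, and TPM for shares within a library. The log2 ratio used a prior count of 2, medians took genes with a mean of at least 1 CPM, and folds carry exact conditional binomial 95% intervals.

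Cell types were compared in edgeR 4.0.16 (R 4.3.3) by glmQLFTest with a genotype block and filterByExpr; limma 3.58.1 and DESeq2 1.42.0 were alternatives, as were other scalings, filters and leaving out each library. The script was tested on simulated counts with known folds. All 33 members are named, and of the other lists at most 3 genes per direction with the largest ratio past the size rule, and markers that move with a result. Slc2a5, Pygl, Bhlhe40 and Gm23935 were chosen after their values were seen. The members and lists were chosen with earlier results of these data known. Coordinates are from GENCODE M21.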

Additional observations from a re-analysis of the deposited data

Results flagged for a closer look

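For 4 members the VE over WT log2 ratio passed the size rule in opposite directions in different cell types. Each rests on 1 library per group, and the difference between the cell types was not tested. Pfkfb3 was at -1.35 in monocytes and 1.25 in IVM. Ldhb was at -1.72 in monocytes, 1.09 in IVM and 1.33 in microglia. Hif1a was at 1.13 in monocytes and -2.25 in microglia. Ankrd37 was at 4.90 in monocytes and -1.22 in IVM. Each had a value under 2-fold on 1 side in some setting: without the length trend Pfkfb3 was at 0.56 in IVM and Ldhb at 0.81 in IVM and 0.46 in microglia, Hif1a in monocytes was at 0.54 with library size scaling and 0.26 on TPM, and Ankrd37 in IVM was at -0.01 on TPM.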

How the results depend on the processing

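No paired analysis was possible because each group has 1 library and the labels give no replicate numbers; genotype is the block in the comparison of cell types. The median log2 ratio of the members, VE over WT, was 0.27 in monocytes and 0.13 in microglia with library size scaling, 0.02, 1.31 and 0.46 in monocytes, IVM and microglia on TPM, and turned to -0.62 in IVM once the trend with gene length was removed. Members at least 2-fold higher numbered 4 (monocytes) and 6 (microglia) with library size scaling, and 1 (monocytes) and 21 (IVM) on TPM; those lower numbered 6 and 5 with library size scaling, 4 and 1 on TPM, and 8 in IVM without the length trend. No single member past the size rule changed direction under these settings. DESeq2 size factors kept all medians and counts within 1.5 times.

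Between IVM and monocytes DESeq2 called 1 member higher (2.64% of all genes) and 1 lower (3.16%). In that comparison limma-voom called 1 lower (1.15%) and the fit on genes with any count 1 lower (0.892%). For microglia over monocytes, members called higher numbered 0 with library size scaling (0.817% of all genes) and 4 with DESeq2 (6.32%). They numbered 2 with limma-voom (2.29%) and 3 with any count (1.98%). For IVM over microglia, DESeq2 and the fit with any count each called 2 higher and 1 lower. Leaving out 1 library at a time gave 0 to 4 higher and 0 to 6 lower (IVM over monocytes), 0 to 7 higher and 1 to 6 lower (microglia over monocytes), and 1 to 8 higher and 0 to 9 lower (IVM over microglia), with the highest counts without VE IVM; the lone library of a group is then assumed to vary like the others. The fit without the genotype block kept every count within 1.5 times. Pfkp was called in all 11 alternatives of both of its comparisons. The causes of these shifts were not tested. Low counts limit Ndrg1 in microglia, at 7 and 6 counts in VE and WT, and Aldoc in WT IVM, at 6.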
